A study of Rattus norvegicus with 18 samples.

Results

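Antigen presentation by the major histocompatibility complex (MHC) was followed in rat retina through 8 genes, B2m, Tap1, Tap2, Tapbp, Cd74, RT1-Da, RT1-Ba and RT1-Bb. Each was taken as the probe set that carries that symbol alone in the array's annotation, and each of the 8 genes had 1 such probe set, of 29214 probe sets and 14506 named genes on the array. Retinal RNA was hybridized to 18 Affymetrix rat Gene 1.0 ST arrays, 3 in each of 6 groups, each retina coming from a different animal. All rats were adult Sprague Dawley, aged P80 to P120, reared in 5 lux cyclic light and fed the vegetable matrix that also served as vehicle. LD retinas came from animals given 24 h of damaging light, PBMLD from animals given photobiomodulation (PBM, red light of 670 nm for 3 min a day over 5 days) before the same light, and SafLD from animals fed saffron (1 mg/kg/day for 3 weeks) before it. The PBM and saffron groups had the pretreatment without the light, and control retinas had neither. The damaging light is given as 1000 lux in the sample descriptions and protocols, whereas the source names of the LD samples give 100 lux.

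MHC class I molecules display fragments of a cell's own proteins to cytotoxic T cells, and class II molecules display fragments of engulfed proteins to helper T cells. On the class I side, B2m (beta-2 microglobulin) is the invariant light chain without which heavy chains do not reach the surface, Tap1 and Tap2 form the pump that carries peptides into the endoplasmic reticulum, and Tapbp (tapasin) holds the empty class I molecule at that pump. On the class II side, RT1-Da is the alpha chain of the rat RT1-D molecule, RT1-Ba and RT1-Bb are the alpha and beta chains of RT1-B, and Cd74 (the invariant chain) fills their groove on the way to endosomes. In the healthy retina class II is scarce and is found on microglia and perivascular cells rather than on neurons, and both classes are inducible by interferon.

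The starts of 4 members are shown because Tap1 and Tap2 encode the subunits of 1 pump, and RT1-Da and RT1-Bb had larger differences from control in LD retinas than RT1-Ba, the other RT1 member. The stretches are RefSeq sequence of the GRCr8 assembly, 5′ to 3′, and end at the annotated gene. Capitals mark matches, on either strand, to the interferon-stimulated response element searched as GAAANNGAAA, to the Y box CCAAT and to a kappa B pattern, GGGNNTTTCC.
Tap1 (chr20:4668544-4668793, minus strand): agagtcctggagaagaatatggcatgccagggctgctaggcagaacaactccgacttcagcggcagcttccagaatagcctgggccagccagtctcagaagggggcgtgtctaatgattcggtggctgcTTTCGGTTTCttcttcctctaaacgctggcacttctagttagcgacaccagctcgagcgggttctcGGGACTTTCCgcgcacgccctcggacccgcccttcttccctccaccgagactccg
Tap2 (chr20:4652297-4652546, minus strand): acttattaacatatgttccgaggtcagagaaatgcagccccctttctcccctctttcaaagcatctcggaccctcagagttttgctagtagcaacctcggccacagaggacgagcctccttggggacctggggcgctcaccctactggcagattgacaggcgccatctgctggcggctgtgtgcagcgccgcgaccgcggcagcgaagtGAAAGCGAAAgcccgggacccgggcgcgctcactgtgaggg
RT1-Da (chr20:4515165-4515392, plus strand): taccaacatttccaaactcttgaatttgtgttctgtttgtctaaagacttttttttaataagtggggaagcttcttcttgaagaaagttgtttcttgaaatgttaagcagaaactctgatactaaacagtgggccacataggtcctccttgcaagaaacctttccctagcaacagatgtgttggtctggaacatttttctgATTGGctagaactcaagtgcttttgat
RT1-Bb (chr20:4604119-4604368, minus strand): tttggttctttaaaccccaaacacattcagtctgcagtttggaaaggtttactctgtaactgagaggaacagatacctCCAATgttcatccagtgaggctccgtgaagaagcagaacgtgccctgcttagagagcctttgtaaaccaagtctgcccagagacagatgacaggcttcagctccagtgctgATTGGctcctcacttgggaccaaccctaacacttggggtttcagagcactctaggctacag

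All 8 members were matched by symbol to a 300-base promoter window reaching 250 bases upstream of the start. The interferon pattern was present in all 4 class I members (B2m, Tap1, Tap2 and Tapbp) and in no class II member, against 3.92% of 33469 rat promoter windows. The Y box pattern occurred in 5 of 8 members, B2m and the 4 class II members, and in 37.5% of all windows. No member held the gamma-activated pattern TTCNNNGAA, which 8.87% of all windows held. The kappa B core GGGNNTTCC was found in 2 of 8 members, Cd74 and RT1-Ba, and in 5.92% of all windows. The longer GGGNNTTTCC, tried after the sequences were seen, was found in 4 of 8, B2m, Tap1, Tapbp and Cd74, and in 1.53% of all windows. These are letter matches and were not tested as binding sites. Among protein-coding genes Tap1 lies between Psmb8 and Psmb9, Tap2 beside Psmb8, and RT1-Ba beside RT1-Bb, all on chromosome 20, with B2m on chromosome 3 and Cd74 on chromosome 18.

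Values are log2 intensities, and each gene is compared only with itself across arrays, because brightness on this array also depends on the probes. Differences were fitted with limma on all 18 arrays, with p-values adjusted by the Benjamini-Hochberg method over all 29214 probe sets. A gene counts as called here if it had both an adjusted p below 0.05 and a change of over 2-fold. Errors are SD for levels (n = 3 arrays) and SE for differences. Array medians lay between 6.122 and 6.195. Retina was recognisable in every group by 6 rod genes, whose mean level ran from 12.27 to 12.91 over the arrays, and light exposure by Gfap, the intermediate filament of reactive glia, which was higher in LD than in control retinas by 3.27 ± 0.27 log2 units (limma, adjusted p = 7.25e-06). LD array 1 was the lowest of the LD arrays in 6 of the 8 members, and PBMLD array 1 the lowest of the PBMLD arrays in 5. In whole retina, fewer cells of a type and less RNA per cell cannot be told apart.

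Each light-exposed group was first compared with control. In LD against control 1 of 8 was called by limma, Tap1, and 0 by the methods' t-test, where limma called 0.531% of all probe sets. In PBMLD against control 0 of 8 were called by limma, with 2 members at an unadjusted p below 0.05 and 0 called by the methods' t-test, and the background was 0.366%. In SafLD against control 1 of 8 was called, again Tap1, which the methods' t-test called unadjusted but not after adjustment, with 0.921% of all probe sets. Without the fold limit the counts were 1, 0 and 2, and the shares of all probe sets 1.11%, 0.753% and 2.80%. At an unadjusted p below 0.05 there were 5 members in LD and 3 in SafLD against control. The share of all probe sets at that unadjusted limit was not counted, here or in later comparisons. Counts at an unadjusted p are therefore given as a description only. The median difference of the 8 members was 0.50 log2 units in LD, 0.01 in PBMLD and 0.26 in SafLD, all against control, beside −0.02, 0.03 and 0.02 over all probe sets. The 3 comparisons share the control arrays. Groups did not overlap for 2 of 8 members in LD against control (16.4% of all probe sets), for 2 in PBMLD (15.6%) and for 4 in SafLD (25.8%), shares of few genes that are read here only gene by gene.

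**Figure D1:**
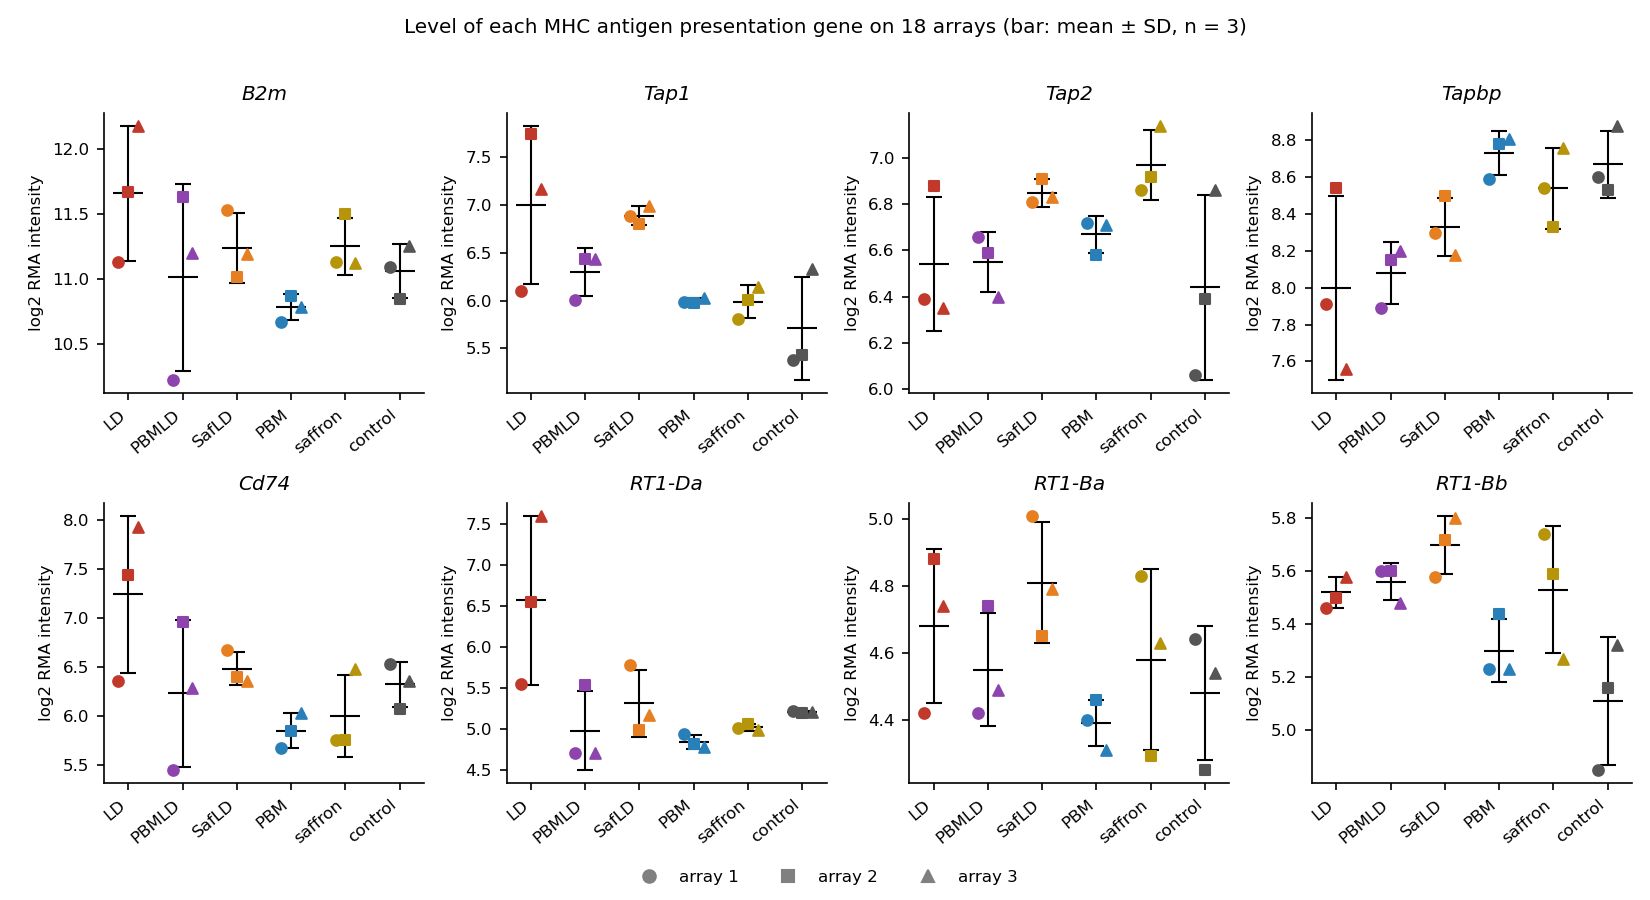
Log2 RMA intensity (vertical axis, its own range for each gene) of the 8 genes on 18 arrays, by group. Points are single arrays, shaped by array number, and the bar is the mean ± SD (n = 3). Tap1 lies at 6.80 or above on all 3 SafLD arrays, and RT1-Da spans 5.55 to 7.60 over the LD arrays.

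Among the class I genes, Tap1, a subunit of the peptide pump, rose in LD and in SafLD retinas. Its level was 6.10, 7.74 and 7.17 in LD, 6.01, 6.44 and 6.44 in PBMLD, and 6.88, 6.80 and 6.99 in SafLD retinas, against 5.38, 5.43 and 6.33 in control retinas. Every SafLD array was above every control array, whereas LD array 1 was below control array 3, and all PBMLD arrays were above control arrays 1 and 2. Against control, Tap1 was 2.44-fold higher in LD retinas (1.29 ± 0.30 log2 units, limma adjusted p = 0.0494) and 2.26-fold higher in SafLD retinas (1.18 ± 0.30, adjusted p = 0.0468). In PBMLD retinas its difference was 0.59 ± 0.30 (adjusted p = 0.462). The group means fell in the order LD (7.0), SafLD (6.89), PBMLD (6.30), PBM (6.0), saffron (5.99) and control (5.71), and the gap between LD and SafLD was −0.11 ± 0.30 (SafLD minus LD, adjusted p = 0.941), or 0.26 without LD array 2. Both calls sat at the threshold. The LD call was lost with the methods' t-test, adjusted or not, and the SafLD call with that test after adjustment. In a limma fit of the LD and control arrays alone the adjusted p of the LD difference was 0.319. The control mean of Tap1 also lay below the limit of 6.146 used for dim probe sets. With each array left out in turn, the LD call was kept in 3 of 18 fits, those without LD array 1, control array 3 or PBMLD array 1, with adjusted p between 0.000664 and 0.253. The SafLD call was kept in 6 of 18, those without control array 3, any LD array, PBMLD array 1 or PBMLD array 2, with adjusted p between 0.00735 and 0.197.

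Tap2, the partner of Tap1 in the pump, did not pass the test in any comparison. It stood at 6.39, 6.88 and 6.35 in LD, 6.66, 6.59 and 6.40 in PBMLD and 6.81, 6.91 and 6.83 in SafLD retinas, against 6.06, 6.39 and 6.86 in control retinas. The 3 SafLD arrays lay close together (SD 0.06), between control arrays 2 and 3 or just above control array 3, and the LD arrays lay inside the control range but for LD array 2. Its difference from control was 0.10 ± 0.18 in LD (adjusted p = 0.931, 95% interval −0.27 to 0.47), so a 2-fold rise lay outside the interval. In SafLD it was 0.41 ± 0.18 (adjusted p = 0.236).

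Tapbp, which joins the pump to the class I molecule, had its lowest values after light. It measured 7.91, 8.54 and 7.56 in LD, 7.89, 8.15 and 8.20 in PBMLD and 8.30, 8.50 and 8.18 in SafLD retinas, against 8.60, 8.53 and 8.88 in control retinas. All PBMLD and all SafLD arrays were below every control array, and LD array 2 alone of the LD arrays reached the control range. The differences from control were −0.67 ± 0.20 in LD (adjusted p = 0.149), −0.59 ± 0.20 in PBMLD (adjusted p = 0.22) and −0.34 ± 0.20 in SafLD (adjusted p = 0.398), none past the threshold. Without LD array 2 the LD difference was −0.93 (adjusted p = 0.0122, under the 2-fold limit), and without LD array 3 it was −0.45 (adjusted p = 0.581).

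B2m, the shared light chain, varied widely between the arrays of LD (SD 0.52) and of PBMLD (SD 0.72). Its levels were 11.13, 11.67 and 12.18 in LD, 10.22, 11.63 and 11.20 in PBMLD and 11.53, 11.01 and 11.19 in SafLD retinas, against 11.09, 10.84 and 11.25 in control retinas. LD arrays 2 and 3 were above all control arrays, while LD array 1 was not, and the PBMLD arrays ran from below to above the control range. Against control the differences were 0.60 ± 0.29 in LD (adjusted p = 0.526), −0.04 ± 0.29 in PBMLD (adjusted p = 0.973) and 0.19 ± 0.29 in SafLD (adjusted p = 0.814). The LD difference was 0.87 without LD array 1 and 0.34 without LD array 3, and the PBMLD difference 0.35 without PBMLD array 1 and −0.35 without PBMLD array 2.

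**Figure D2:**
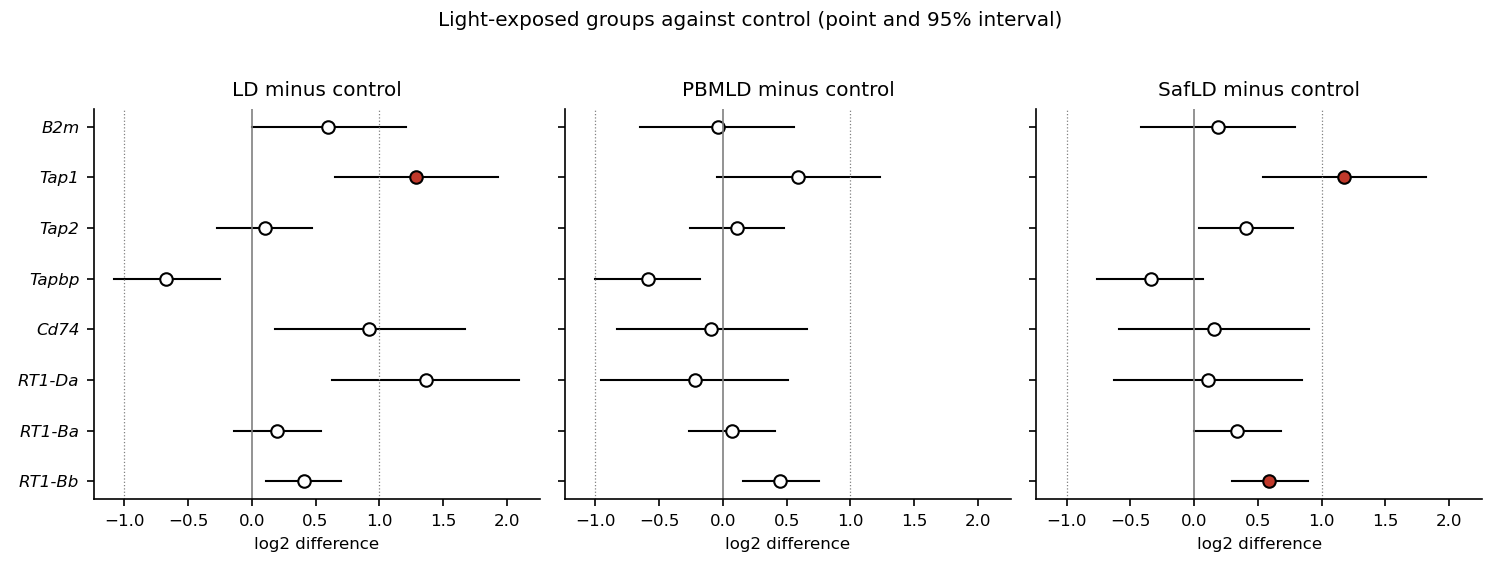
Log2 difference (horizontal axis) of each gene in LD, PBMLD and SafLD minus control, with 95% intervals from the limma fit, unadjusted for the number of probe sets. Filled points had an adjusted p below 0.05, and dotted lines mark 2-fold. Tap1 is filled in LD and SafLD, RT1-Bb is filled in SafLD, and Tapbp lies left of 0 in all 3 panels.

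Among the class II genes, RT1-Da had the widest range of the 8 members over the arrays, 2.90 log2 units, and its highest values were those of LD arrays 3 and 2. It was at 5.55, 6.55 and 7.60 in LD, 4.71, 5.54 and 4.70 in PBMLD and 5.78, 4.99 and 5.17 in SafLD retinas, against 5.22, 5.19 and 5.21 in control retinas. The LD arrays did not overlap the control arrays, but they were spread far wider (SD 1.03 in LD and 0.02 in control retinas). The difference between LD and control retinas was 1.37 ± 0.35 (2.58-fold, limma adjusted p = 0.078), which did not pass. Without LD array 1 it was 1.88 (adjusted p = 0.0014), and without LD array 3 it was 0.85 (adjusted p = 0.362). Against control, RT1-Da differed by −0.22 ± 0.35 in PBMLD (adjusted p = 0.858) and 0.11 ± 0.35 in SafLD retinas (adjusted p = 0.917).

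Cd74 had the same order of LD arrays as RT1-Da. Its level was 6.36, 7.44 and 7.92 in LD, 5.45, 6.96 and 6.28 in PBMLD and 6.67, 6.40 and 6.36 in SafLD retinas, against 6.53, 6.07 and 6.36 in control retinas. LD arrays 2 and 3 exceeded every control array and LD array 1 lay among them, and PBMLD array 2 was likewise above the control range while PBMLD array 1 was below it. Its difference from control was 0.92 ± 0.35 in LD (adjusted p = 0.355), −0.09 ± 0.35 in PBMLD (adjusted p = 0.954) and 0.16 ± 0.35 in SafLD retinas (adjusted p = 0.876). Without LD array 1 the LD difference was 1.36 (adjusted p = 0.042), and without LD array 3 it was 0.58 (adjusted p = 0.8). The PBMLD difference was 0.30 without PBMLD array 1 and −0.45 without PBMLD array 2.

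RT1-Bb, the beta chain of RT1-B, passed the adjusted p in SafLD against control. It measured 5.46, 5.50 and 5.58 in LD, 5.6, 5.6 and 5.48 in PBMLD and 5.58, 5.72 and 5.80 in SafLD retinas, against 4.85, 5.16 and 5.32 in control retinas. All 9 light-exposed arrays were above all 3 control arrays. The SafLD difference was 0.59 ± 0.14, a rise of 1.51-fold (limma adjusted p = 0.0308), under the 2-fold limit. In LD it was 0.41 ± 0.14 (adjusted p = 0.254) and in PBMLD 0.45 ± 0.14 (adjusted p = 0.178). The SafLD value lost its adjusted p below 0.05 without control array 1 (0.161), control array 2 (0.0675), SafLD array 2 (0.103) or SafLD array 3 (0.139). The saffron arrays, without light, reached 5.74, 5.59 and 5.27, so the 2 highest of them lay in the light-exposed range. Against saffron alone, SafLD differed in RT1-Bb by 0.17 ± 0.14 (limma adjusted p = 0.624). Against PBM alone, PBMLD differed by 0.26 ± 0.14 (adjusted p = 0.682). RT1-Bb lay below the limit of 6.146 used for dim probe sets in all groups.

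RT1-Ba, the alpha chain of the same molecule, stayed between 4.25 and 5.01 on all 18 arrays and passed in no comparison. It was at 4.42, 4.88 and 4.74 in LD, 4.42, 4.74 and 4.49 in PBMLD and 5.01, 4.65 and 4.79 in SafLD retinas, against 4.64, 4.25 and 4.54 in control retinas. The SafLD arrays lay just above the control arrays, by 0.34 ± 0.16 in the means (adjusted p = 0.303), and the LD arrays overlapped them (0.20 ± 0.16, adjusted p = 0.77).

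Pretreatment before light was compared with light alone. In PBMLD against LD 0 of 8 members were called by limma, with 4 at an unadjusted p below 0.05 and 0 called by the methods' t-test, while 0.216% of all probe sets were called. The members' median difference was −0.39 log2 units, beside 0.04 over all probe sets. RT1-Da had the largest difference, −1.59 ± 0.35 (3.01-fold lower in PBMLD, adjusted p = 0.0684), and was the 1 member whose groups did not overlap, where 13.1% of all probe sets did not. The other 3 at an unadjusted p below 0.05 were Cd74 at −1.01 ± 0.35 (adjusted p = 0.293), Tap1 at −0.70 ± 0.30 (adjusted p = 0.387) and B2m at −0.65 ± 0.29 (adjusted p = 0.402). Tap2, Tapbp, RT1-Ba and RT1-Bb differed by between −0.13 and 0.08. For RT1-Da the difference ran from −2.10 without LD array 1 (adjusted p = 0.00124) to −1.07 without LD array 3 (adjusted p = 0.189), and was −1.45 without PBMLD array 1 (adjusted p = 0.193). Without PBMLD array 1 the difference was −0.62 for Cd74 and −0.25 for B2m, and without LD array 2 that of Tap1 was −0.33. Without LD array 1 Tap1 was also called (−1.16, adjusted p = 0.041), and without PBMLD array 2 RT1-Da alone was (−1.87, adjusted p = 0.0315).

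In SafLD against LD 0 of 8 members were called by limma, with 2 at an unadjusted p below 0.05 and 0 called by the methods' t-test, beside 0.257% of all probe sets, and 0 of 8 did not overlap (16.6% of all probe sets). RT1-Da differed by −1.26 ± 0.35 (2.39-fold lower in SafLD, adjusted p = 0.176) and Cd74 by −0.77 ± 0.35 (adjusted p = 0.507). SafLD array 1, at 5.78, lay above LD array 1 in RT1-Da. Without LD array 1 the RT1-Da difference was −1.77 (adjusted p = 0.00839), and without LD array 3 it was −0.74 (adjusted p = 0.422). That of Cd74 was −1.20 and −0.42 in the same fits. The members' median was 0.01, beside 0.03 over all probe sets, and Tap1, Tap2 and RT1-Bb had 95% intervals of −0.75 to 0.53, −0.06 to 0.68 and −0.11 to 0.48.

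**Figure D3:**
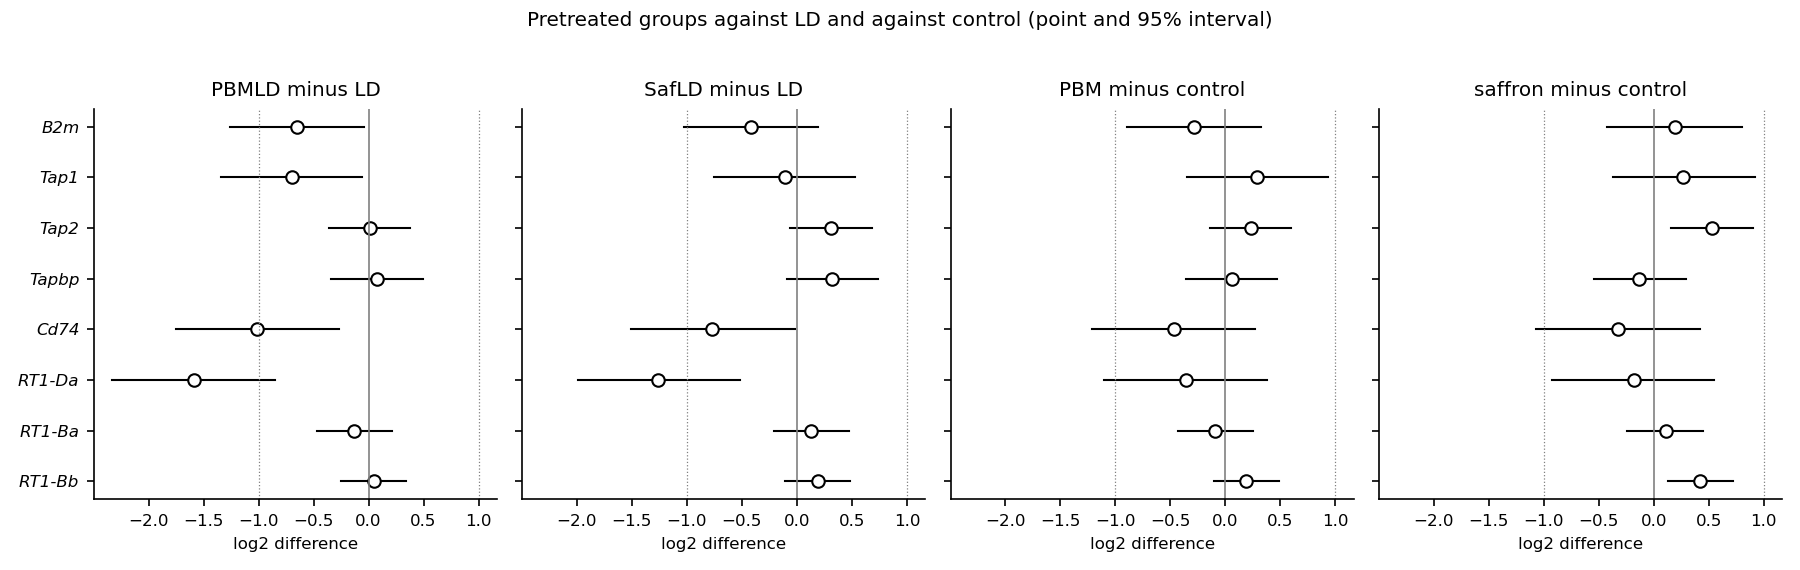
Log2 difference (horizontal axis) of each gene, with 95% intervals from the limma fit, for PBMLD and SafLD minus LD and for PBM and saffron minus control. No point is filled, since none had an adjusted p below 0.05, and dotted lines mark 2-fold. RT1-Da and Cd74 lie farthest to the left in both comparisons with LD.

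Given without light, neither pretreatment had a called member. In PBM against control 0 of 8 were called by limma, 0 at an unadjusted p below 0.05 and 0 by the methods' t-test, with 0.133% of all probe sets called. The PBM arrays lay below all control arrays for 2 of 8 members, Cd74 (5.67, 5.85 and 6.03 in PBM, −0.47 ± 0.35, adjusted p = 0.694) and RT1-Da (4.94, 4.81 and 4.78, −0.36 ± 0.35, adjusted p = 0.771), where 23.1% of all probe sets did not overlap. In saffron against control 0 of 8 were called by limma and 0 by the methods' t-test, with 2 at an unadjusted p below 0.05, and 0.00% of all probe sets were called. Those 2 were Tap2, at 6.86, 6.92 and 7.14 in saffron retinas (0.53 ± 0.18, adjusted p = 0.989), and RT1-Bb (0.42 ± 0.14, adjusted p = 0.989). RT1-Da, at 5.01, 5.06 and 4.99 in saffron retinas, lay below its 3 control values (−0.18 ± 0.35, adjusted p = 0.994). It was the 1 of 8 members without overlap in saffron against control, where 2934 of all 29214 probe sets did not overlap. Its control values lay close together (SD 0.02), so a small difference was enough to separate the groups.

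Light within pretreated retinas gave no called member either. In PBMLD against PBM 0 of 8 were called by limma and 0 by the methods' t-test, 1 having an unadjusted p below 0.05, with 0.147% of all probe sets called. That gene was Tapbp, which was lower by 0.65 ± 0.20 log2 units in PBMLD (8.08 in PBMLD and 8.73 in PBM retinas, adjusted p = 0.268). Tapbp and RT1-Bb were the 2 of 8 members without overlap in this comparison, where 13.5% of all probe sets did not overlap. In SafLD against saffron 0 of 8 were called by limma and 0 by the methods' t-test, 1 having an unadjusted p below 0.05, with 0.825% of all probe sets called. This was Tap1, at 0.90 ± 0.30 (6.89 in SafLD and 5.99 in saffron retinas, adjusted p = 0.147), whose SafLD arrays were all above the saffron arrays. It was the 1 of 8 members without overlap there, where 20.0% of all probe sets did not overlap. Whether the light response itself differed with pretreatment was tested as an interaction. With PBM 0 of 8 were called by limma and 2 had an unadjusted p below 0.05 (0.00685% of all probe sets called), RT1-Da at −1.23 ± 0.49 and Tap1 at −0.99 ± 0.43, both with an adjusted p of 0.999. With saffron 0 of 8 were called and 1 had an unadjusted p below 0.05 (0.140% of all probe sets called), RT1-Da at −1.07 ± 0.49 (adjusted p = 0.838). A difference in light response between pretreated and untreated animals was therefore not detectable for any member at 3 arrays a group.

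The rest of the pathway was followed in lists of genes around the members. Of 26 other class I heavy chain genes, 1 rose in LD against control at an adjusted p below 0.05, RT1-CE7 (0.60 ± 0.13, adjusted p = 0.0307), and the list's median was 0.12. Its levels were 7.65, 8.02 and 7.83 in LD, 7.24, 7.69 and 7.47 in PBMLD and 7.75, 7.66 and 7.69 in SafLD retinas, against 7.13, 7.27 and 7.29 in control retinas, so that all LD and all SafLD arrays were above the control arrays. A further probe set listed for RT1-CE7, RT1-CE1 and RT1-CE12 together had 0.52 ± 0.13 in LD (adjusted p = 0.0831), and one listed for RT1-A1, RT1-A2 and RT1-A3, the classical class I genes, had 0.15 ± 0.14 (adjusted p = 0.816). Some RT1 class I genes are listed together for the same probe set, as here, so that the signal of a gene can come from another. In SafLD against control 1 of the 26 rose, RT1-CE16 (0.64 ± 0.16, adjusted p = 0.0429), which was named after its value was seen. In PBMLD against control 0 of 26 passed.

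Of 6 other class II genes 0 passed in LD, PBMLD or SafLD against control. RT1-Db1, listed for the beta chain that pairs with RT1-Da, differed by −0.03 ± 0.15 in LD (adjusted p = 0.979), and RT1-DMb, a chain of the molecule that loads class II, by 0.28 ± 0.23 (adjusted p = 0.785). RT1-Db1 lay between 3.68 and 4.18 on all arrays and RT1-DMb between 5.01 and 5.95. Both were below the limit of 6.146 used for dim probe sets, where a change can go unseen. The median of the 6 was −0.02 in LD against control. Of 8 measured class II processing genes 0 passed in LD. The largest difference there was Cd63, a tetraspanin of late endosomes (0.60 ± 0.22, adjusted p = 0.331). Lgmn, the endosomal protease legumain, fell in SafLD against control by 0.49 ± 0.12 (adjusted p = 0.0395).

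Class I loading and trimming genes gave 0 of 6 past the threshold in LD and 1 of 6 in SafLD, Erap1, the endoplasmic reticulum aminopeptidase that trims peptides. Erap1 stood at 8.79, 8.64 and 8.50 in SafLD and 8.05, 8.51 and 8.53 in LD retinas, against 7.76, 7.94 and 8.05 in control retinas. It rose by 0.72 ± 0.17 in SafLD (adjusted p = 0.0279) and differed by 0.44 ± 0.17 in LD (adjusted p = 0.343). None of the 6 immunoproteasome and activator genes passed in LD, PBMLD or SafLD against control. Psmb9, a catalytic subunit that lies beside Tap1, was at 6.24, 7.13 and 7.33 in LD retinas, with LD array 1 again lowest, against 6.44, 6.29 and 6.63 in control retinas (0.45 ± 0.34, adjusted p = 0.753).

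Among 11 measured regulators of MHC genes 1 passed in LD against control, Irf1, an interferon-regulatory factor that activates class I and Tap1 promoters. Irf1 was at 7.21, 8.07 and 8.05 in LD, 6.17, 7.20 and 6.84 in PBMLD and 7.09, 7.36 and 7.37 in SafLD retinas, against 6.38, 6.43 and 6.47 in control retinas. All LD and all SafLD arrays were above the control arrays, and PBMLD array 1 was below them. It rose by 1.35 ± 0.24 in LD (adjusted p = 0.00739) and differed by 0.85 ± 0.24 in SafLD (adjusted p = 0.0699) and by 0.31 ± 0.24 in PBMLD (adjusted p = 0.659). Nfyb, a subunit of the factor that binds the Y box, differed by −0.45 ± 0.13 in LD (adjusted p = 0.14), Creb1, a transcription factor, by 0.40 ± 0.13 (adjusted p = 0.235), and Rfxap, of the complex that binds the class II X box, by −0.30 ± 0.13 (adjusted p = 0.444). Ciita, the master regulator of class II genes, differed by −0.27 ± 0.12 in LD (adjusted p = 0.489), at 5.70, 5.71 and 5.57 in LD against 5.95, 5.96 and 5.88 in control retinas. These Ciita values lay below the limit of 6.146 used for dim probe sets, where a change can go unseen. Of 8 measured interferon ligands and receptors 0 passed in LD, where Ifng itself had 0.28 ± 0.19 (adjusted p = 0.695), and 1 in SafLD, the kinase Jak2 (0.50 ± 0.12, adjusted p = 0.0388). Ifng lay between 2.74 and 3.73 on all arrays, below the limit of 6.146 used for dim probe sets, so a change in it could go unseen. Of 4 measured costimulation genes, Icam1, an adhesion molecule for leukocytes, rose in LD by 2.39 ± 0.29 (adjusted p = 0.000259) and in SafLD by 1.76 ± 0.29 (adjusted p = 0.0028). In PBMLD Icam1 differed by 1.02 ± 0.29 (adjusted p = 0.132), and Cd80, Cd86 and Cd40 passed in none of these comparisons. Cd80, Cd86 and Cd40 lay below the limit of 6.146 on all arrays, so a change in them could go unseen. Against LD, 0 genes of these 8 lists passed in PBMLD or SafLD, with Icam1 at −1.37 ± 0.29 (adjusted p = 0.058) and Irf1 at −1.04 ± 0.24 (adjusted p = 0.0907) in PBMLD.

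**Figure D4:**
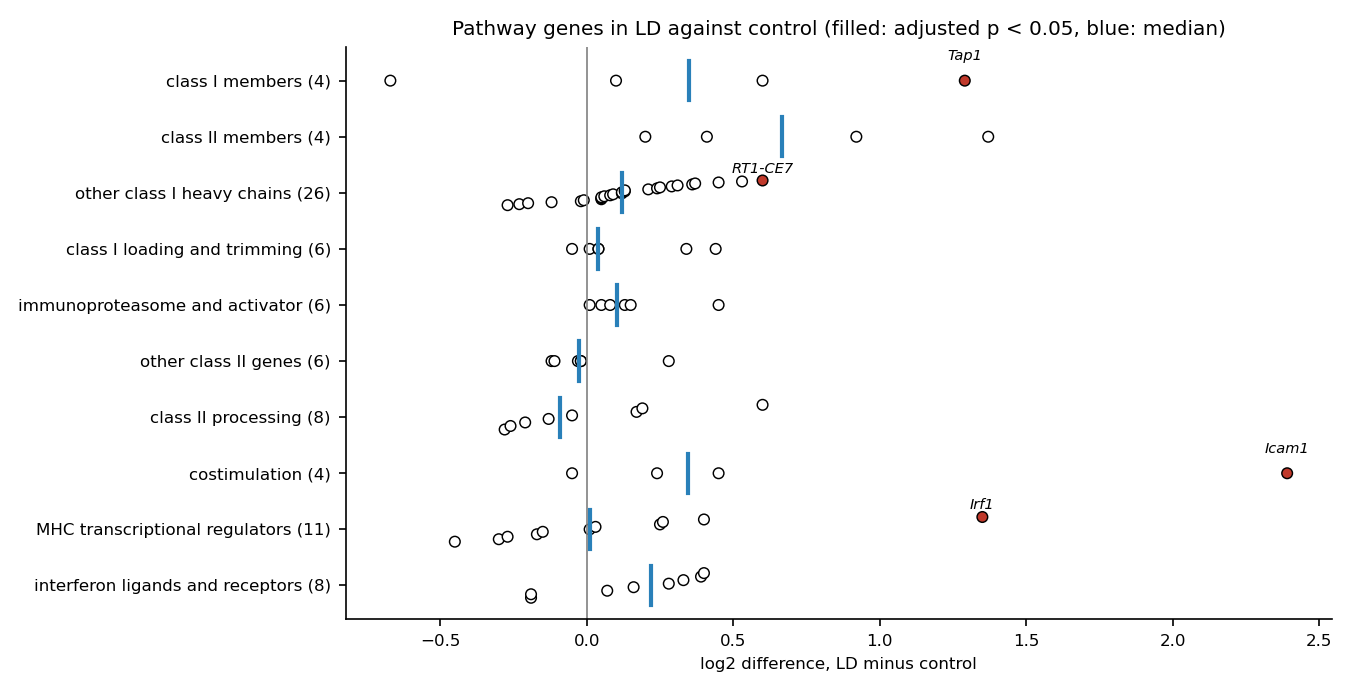
Log2 difference, LD minus control (horizontal axis), for the 4 class I members, the 4 class II members and 8 lists of other pathway genes, with the number measured in brackets. Each point is a gene, filled where its adjusted p was below 0.05, and the blue line is the list's median. Tap1, RT1-CE7, Icam1 and Irf1 are the filled points, and the other class II genes lie between −0.12 and 0.28.

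Class II genes are carried by microglia, macrophages and incoming leukocytes, so markers of these cells were read on the same arrays. The mean level of 15 microglia and macrophage genes was 5.62, 5.77 and 5.87 in LD, 5.58, 5.65 and 5.56 in PBMLD and 5.77, 5.74 and 5.71 in SafLD retinas, against 5.79, 5.66 and 5.83 in control retinas, with LD and SafLD overlapping the control range and PBMLD just below it. Of the 15, 1 passed in LD, P2ry12, a receptor of resting microglia, which fell by 1.04 ± 0.24 (adjusted p = 0.0419). Its lowest values, 4.66 and 4.62, were on LD arrays 2 and 3, the arrays highest in Cd74 and RT1-Da. The differences of the 15 genes in LD ran from −1.04 to 0.77 with a median of −0.1, so most lay below 0. After P2ry12 the largest falls were C1qb (−0.42 ± 0.14, adjusted p = 0.235) and Cx3cr1 (−0.35 ± 0.15, adjusted p = 0.454). Some other genes of the list were high on LD arrays 2 and 3 without passing. Ptprc, the leukocyte antigen CD45, was at 4.73, 5.69 and 5.67 in LD, against 4.87, 4.82 and 4.35 in control retinas (adjusted p = 0.379). Cd68, a lysosomal protein of macrophages, was at 3.90, 4.88 and 4.96 in LD, against 4.04, 4.12 and 3.89 in control retinas (adjusted p = 0.45). Cd14, a receptor for bacterial endotoxin, was at 5.77, 6.50 and 6.86 in LD, against 5.52, 5.54 and 5.76 in control retinas (adjusted p = 0.298). LD array 1 was the lowest LD array in Ptprc, Cd68 and Cd14. Of 7 dendritic cell and incoming monocyte genes 0 passed. The list named Itgax, but the probe set matched to it carries the symbol Itgad, so Itgax was not read under its own symbol. The mean level of the 7 genes was 5.21, 5.31 and 5.4 in LD, against 5.23, 4.98 and 5.28 in control retinas. Lyz2, the myeloid lysozyme in that list, ran in the same order as Cd74 and RT1-Da over the LD arrays, at 6.55, 7.39 and 7.83 in LD, 5.41, 6.26 and 6.05 in PBMLD and 6.24, 5.97 and 6.23 in SafLD retinas, against 6.50, 5.56 and 6.33 in control retinas. It differed by 1.13 ± 0.30 in LD against control (adjusted p = 0.0887) and by −1.35 ± 0.30 in PBMLD against LD (adjusted p = 0.0684). The other 6 genes of its list differed by less in LD against control, between −0.58 for Flt3 (5.69, 5.56 and 5.0 in LD, the reverse order of arrays) and 0.33 for Ccr2. The T cell list (8 genes) was at 4.38, 4.38 and 4.59 in LD and 4.50, 4.48 and 4.58 in control retinas, and the B cell list (3 genes) at 4.0, 3.78 and 4.07 in LD and 4.04, 3.99 and 4.13 in control retinas, with 0 genes past the threshold in either. The means of both lists lay below the limit of 6.146 used for dim probe sets, where a change can go unseen. So did the means of the microglia and macrophage list and of the dendritic cell and incoming monocyte list. Csf1r, of the microglia and macrophage list, lay above that limit on all arrays.

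Tissue next to the retina also varied between arrays. The mean of 6 pigment epithelium genes was 7.03, 6.41 and 7.18 in LD, 4.66, 6.79 and 5.95 in PBMLD and 6.17, 5.33 and 6.0 in SafLD retinas, against 6.59, 5.45 and 6.12 in control retinas. Its order over the PBMLD arrays was that of B2m and Cd74, with array 1 lowest and array 2 highest, whereas LD array 1, lowest of its group in those 2 genes, was not the lowest in pigment epithelium genes. The mean of 10 lens genes was 11.17, 8.87 and 11.07 in LD, against 9.08, 8.86 and 9.40 in control retinas, so that LD array 2, highest of the LD arrays in Tap1, was at the control level. None of these lens and pigment epithelium genes passed in LD, PBMLD or SafLD against control. The part of leukocyte, pigment epithelium or lens RNA in the members' values was not tested.

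**Figure D5:**
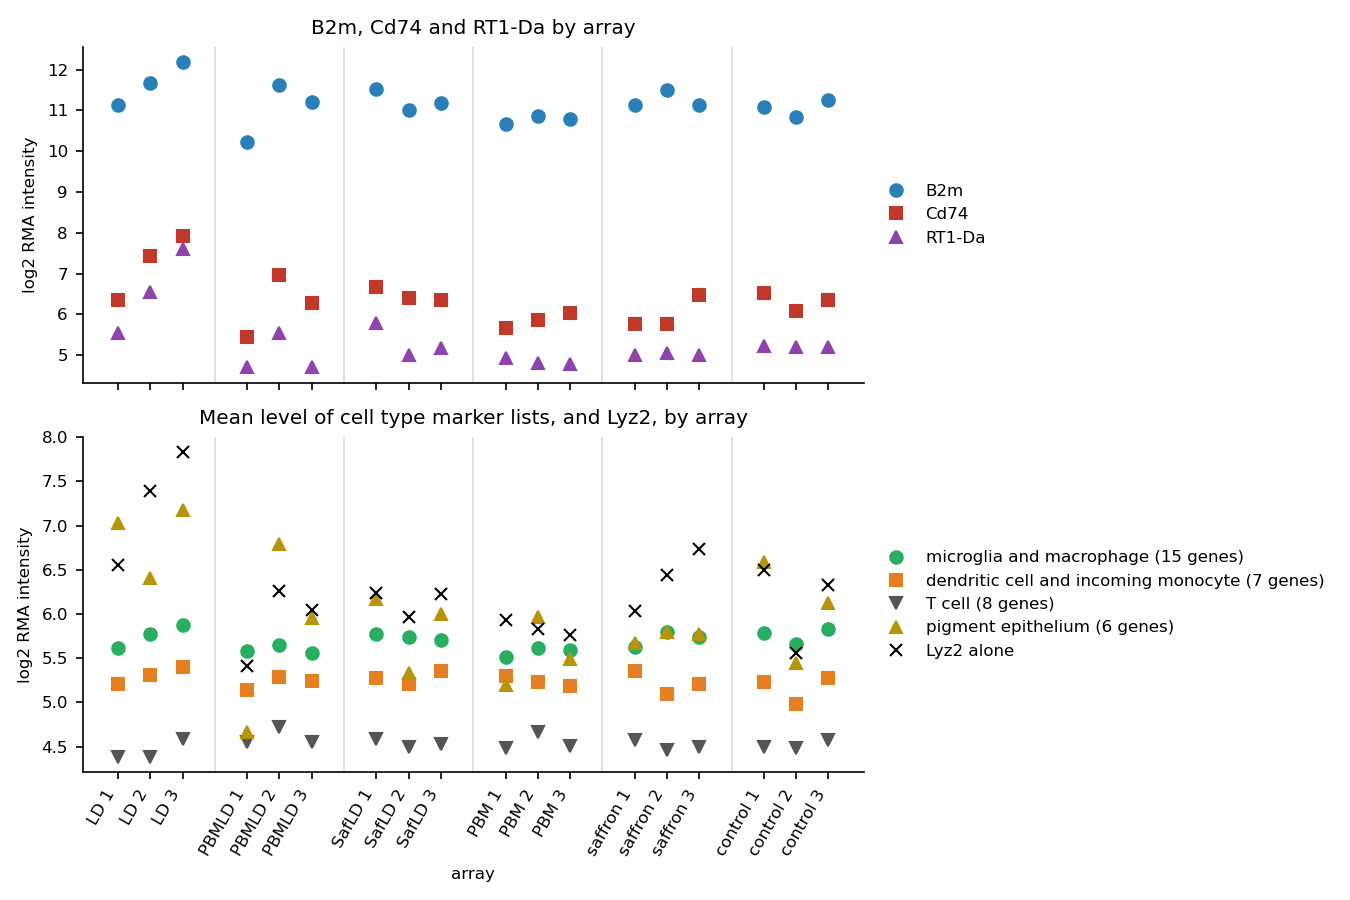
Log2 RMA intensity (vertical axes) on each of 18 arrays, for B2m, Cd74 and RT1-Da above, and for the mean of 4 cell type marker lists and for Lyz2 alone below. Array numbers have no order. LD arrays 2 and 3 are high in Cd74, RT1-Da and Lyz2, while the mean of the microglia and macrophage list, whose genes differed in both directions, stays between 5.51 and 5.87 on all arrays. That mean lies below the limit of 6.146 used for dim probe sets, where a change can go unseen.

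The named genes whose pattern over the 18 arrays was most like the members' are given as a description, by Pearson's r over the arrays, which share their 6 groups. For the mean of the 4 class II members (each standardised) they were Eif2ak2 (r = 0.919), Timp1 (0.919), Ccl4 (0.917), Birc3 (0.916) and Map3k8 (0.913), and for the mean of the 4 class I members Sdcbp (0.768), Calca (0.759), Ifi27 (0.734), Has2 (0.716) and Usp18 (0.715). Taken singly, Cd74 was nearest to Cxcl16 (0.964), Ifitm1 (0.932) and Isg15 (0.929), and Tap1 to Ifih1 (0.924), Cp (0.905) and Ifit3 (0.904). B2m was nearest to Clec2g (0.941), Samd9l (0.938) and Ifitm3 (0.934). RT1-Da was nearest to Serpinb2 (0.918), Rac2 (0.909) and Plin2 (0.895). Of these, Isg15, Ifit3, Ifih1, Usp18, Ifi27, Eif2ak2 and the Ifitm genes are known as interferon-stimulated. Tapbp, by contrast, was nearest to Ddah2 (0.865), Aqp1 (0.836) and Nrl (0.826), the last a transcription factor of rods. Tap2 (0.775 to RT1-S3), RT1-Ba (0.845 to Tax1bp3) and RT1-Bb (0.806 to Kcne2) each had a nearest gene at a lower r than the nearest genes of Cd74, Tap1, B2m, RT1-Da and Tapbp.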

How the data were processed

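Retinal RNA from 18 rats had been hybridized, 3 per group, and groups were taken from the sample labels. The study states more animals per group than arrays, of both sexes, and no label says which sex an array had. What the authors deposited are RMA values on the log2 scale (background-corrected, quantile-normalized and summarised over probes). The program was Affymetrix Expression Console, version 1.1.2800.19935, by the submitters' processing notes. Because quantile normalization gives all arrays nearly the same distribution, a change shared by most genes would not be seen. As to the array's genome build, it was not stated in what was read for this work. Of 29214 probe sets, 15310 had 1 symbol, 323 several and 13581 none. The brightest probe set with 1 symbol stood for a gene.

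A cell-means model was fitted with limma 3.58.1 in R 4.3.3 to all arrays, two-sided, with 12 residual degrees of freedom and a prior of 5.051. The steps were tested on simulated data. The methods' t-test was an alternative, as were dropping the fold limit, dropping dim probe sets, dropping each array in turn, cyclic loess, quantile or median scaling of the values, weighting of arrays, a variance trend with robust fit, fitting only the groups compared, and a replicate block. Described genes were all 8 members, from each list the genes that passed and up to 4 with the largest LD difference, and the most alike genes. Ciita, Ptprc, Cd68, Cd14, C1qb, Cx3cr1, Lyz2, Flt3, Ccr2 and genes that passed only in SafLD were named after their values were seen. The members and lists were chosen with earlier results of these data known. Intervals and errors rest on 3 arrays per group.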

Additional observations from a re-analysis of the deposited data

How the results depend on the processing

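The main counts of called members were 1 in LD against control, 1 in SafLD against control and 0 in every other comparison. In LD against control the count was 0 in a fit of the compared groups alone, with the methods' t-test adjusted or unadjusted, with a variance trend and robust fit, and with quantile normalization of the deposited values. It was 2 with dim probe sets left out, where RT1-Da joined Tap1 (adjusted p = 0.0472). That filter kept 6 of the 8 members, RT1-Da through the LD group alone, and left out RT1-Ba and RT1-Bb. In SafLD against control the count was 0 with the methods' t-test adjusted, 0 with cyclic loess and 2 with no fold limit. In PBMLD against LD it was 1 with cyclic loess and 1 with dim probe sets left out, RT1-Da in both (adjusted p = 0.0444 and 0.0448). With each array left out in turn, the count ran from 0 to 3 in LD against control, from 0 to 1 in SafLD against control, from 0 to 2 in PBMLD against LD and from 0 to 1 in SafLD against LD, the highest of each without LD array 1 except in SafLD against control. The cause of these shifts was not tested. The replicate number as a block (replicate block) left the counts at 1 in LD and 1 in SafLD against control and 0 elsewhere, with adjusted p = 0.0265 and 0.0309 for Tap1, and RT1-Bb in SafLD against control at 0.0505. Same-numbered arrays correlated between −0.386 and 0.306 in their deviations, and different-numbered ones between −0.288 and 0.387, so no pairing by number was seen. As the deviations are from means of 3 arrays, they cannot settle whether the numbers pair the arrays. Of 313 alternative counts 271 stayed the same and 42 moved. Of 2482 alternative values for single members 34 lost a call, all of them for Tap1, 10 gained one, 0 reversed a call and 56 uncalled ones changed sign. Genes of the pathway and marker lists were not refitted under these alternatives. A second probe set for each gene, planned as an alternative, could not be run because each member has 1. RT1-Ba and RT1-Bb lay below the limit of 6.146 used for dim probe sets in all groups, RT1-Da outside LD, Tap1 in PBM, saffron and control retinas, and Cd74 in PBM and saffron retinas.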
